A study of Mus musculus with 8 samples.

Results

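The genes described here encode the TGF-beta ligands (Tgfb1, Tgfb2, Tgfb3), their receptors (Tgfbr1, Tgfbr2, Tgfbr3) and 4 intracellular Smad proteins (Smad2, Smad3, Smad4, Smad7). They were read in a catalogue of CAGE tag clusters, which are short stretches of genome where the capped 5′ ends of RNA were found. The members were all clusters to which the authors had given one of these 10 symbols. There were 82 of them among 84475 clusters in all, and the 10 genes stood among 16094 symbols with a cluster.

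The 8 libraries were made from facial skins of C57BL/6 mice at postnatal day 28, and the labels do not say whether each came from a separate animal. Per the labels, 4 libraries were lesional skin with the genotype Nectin-cre(+);Ikk2FL/FL, and 4 were non-lesional skin of mice labelled Control. Ikk2 is a kinase that activates NF-κB, and the series title writes the Cre driver as Nestin-cre. The nestin promoter is best known for activity in neural progenitors and is not specific to skin. The labels do not say whether the controls carried floxed Ikk2 or Cre, and every lesional sample is also Cre-positive, so the effects of lesion and genotype cannot be told apart.

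The names of the 8 columns of values match no label of a sample. They were not used, so no level, depth or difference between lesional and control skin is given. A cluster here shows that start sites had been called under a gene's symbol somewhere in the series, without saying in which group or how strongly. Every marker that was looked up for keratinocytes (7 of 7), fibroblasts (7 of 7), immune cells (7 of 7), endothelium (5 of 5) and skeletal muscle (5 of 5) had a cluster. Which of these cell types a start site came from cannot be read from the catalogue.

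TGF-beta ligands are secreted in a latent form and, once released, bring together the type II receptor TGFBR2 and the type I receptor TGFBR1. TGFBR1 then phosphorylates SMAD2 and SMAD3, which join SMAD4 and act on genes in the nucleus, while SMAD7 blocks the receptor as a feedback inhibitor. In skin the pathway is known for restraining keratinocyte growth, for driving collagen synthesis by fibroblasts and for limiting T cell responses.

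Promoter sequences are shown because the clusters mark where these genes begin, and because the sequence just before a start is where a TATA box or a GC-rich promoter is recognised. The RefSeq table of build GRCm38.p6 held 6 promoters of 5 of the genes. Tgfb3, Tgfbr3, Smad2, Smad4 and Smad7 had no entry used here. Each line gives the 250 bases before the annotated start, 5′ to 3′ in the direction of the gene. Capitals mark matches on either strand to the GC box GGGCGG, the TATA box TATAAA, the Smad element CAGACA or the CCAAT box. The deposited clusters are on mm9, so no cluster was placed on these sequences.
Tgfb1, chr7:25686752-25687001, plus strand: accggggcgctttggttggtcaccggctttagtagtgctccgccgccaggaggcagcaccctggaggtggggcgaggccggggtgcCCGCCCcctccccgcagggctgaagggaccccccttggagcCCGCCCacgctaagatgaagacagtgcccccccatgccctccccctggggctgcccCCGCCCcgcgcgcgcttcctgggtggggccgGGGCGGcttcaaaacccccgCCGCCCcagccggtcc
Tgfb2, chr1:186705990-186706239, minus strand: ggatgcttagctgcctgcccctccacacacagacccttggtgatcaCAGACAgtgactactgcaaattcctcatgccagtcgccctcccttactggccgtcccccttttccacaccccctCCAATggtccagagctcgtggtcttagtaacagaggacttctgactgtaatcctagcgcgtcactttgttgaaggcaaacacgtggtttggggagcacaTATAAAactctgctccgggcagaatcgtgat
Tgfbr1, first start, chr4:47352972-47353221, plus strand: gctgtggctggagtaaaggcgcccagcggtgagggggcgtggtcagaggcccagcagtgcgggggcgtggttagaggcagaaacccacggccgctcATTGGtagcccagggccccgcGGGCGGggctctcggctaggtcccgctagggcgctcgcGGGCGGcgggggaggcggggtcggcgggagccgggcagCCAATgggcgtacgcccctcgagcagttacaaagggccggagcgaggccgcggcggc
Tgfbr1, second start, chr4:47385966-47386215, plus strand: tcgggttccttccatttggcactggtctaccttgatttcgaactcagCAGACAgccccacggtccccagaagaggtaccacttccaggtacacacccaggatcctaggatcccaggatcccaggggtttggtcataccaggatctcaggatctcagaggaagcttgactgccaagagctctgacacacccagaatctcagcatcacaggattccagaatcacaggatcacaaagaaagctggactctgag
Tgfbr2, chr9:116175364-116175613, minus strand: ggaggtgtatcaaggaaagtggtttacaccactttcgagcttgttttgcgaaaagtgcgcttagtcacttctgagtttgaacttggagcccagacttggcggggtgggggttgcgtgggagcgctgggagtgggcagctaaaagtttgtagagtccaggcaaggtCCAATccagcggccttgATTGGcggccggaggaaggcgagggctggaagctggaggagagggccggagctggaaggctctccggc
Smad3, chr9:63757995-63758244, minus strand: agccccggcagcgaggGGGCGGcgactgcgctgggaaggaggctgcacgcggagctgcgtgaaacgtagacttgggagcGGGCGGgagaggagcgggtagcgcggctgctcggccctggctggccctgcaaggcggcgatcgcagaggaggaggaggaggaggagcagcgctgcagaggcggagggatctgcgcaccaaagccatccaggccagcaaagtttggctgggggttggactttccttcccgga

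All 10 genes had at least 3 clusters. The fewest, 3, were found for Tgfb3, Tgfbr1 and Smad4, and the most, 15, for Tgfbr2. The median was 8.5 clusters per gene, beside a median of 2 over all 16094 genes. Both medians count clusters of any span, and no such comparison is given for clusters of at least 10 bp or joined clusters. Among all genes, 54.3% had 2 or more clusters and 5.06% had 10 or more. Tgfb1, Tgfbr2, Smad3 and Smad7 were at 10 or more. No member cluster had been given to a second gene. By role, the ligands held 20 clusters, the receptors 26 and the Smads 36, and each role included a gene with only 3.

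**Figure D1:**
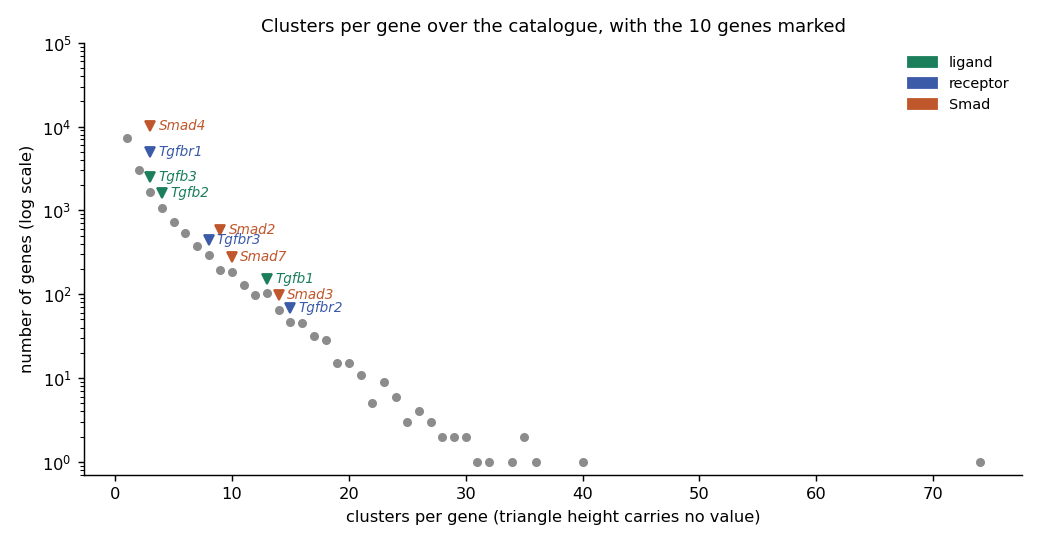
Number of genes (log scale) at each number of clusters per gene over the 16094 genes of the catalogue (grey points), with the 10 TGF-beta pathway genes marked by triangles in the colour of their role. The genes run from 3 clusters (Tgfb3, Tgfbr1, Smad4) to 15 (Tgfbr2), and all lie to the right of the median of 2.

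Most of these clusters were narrow. The span of a cluster, its end minus its start, was under 10 bp for 55 of the 82 (67.1%), beside 48.3% of all clusters with a gene. The median span was 4 bp, beside 11 bp. The widest cluster of a gene spanned from 68 bp in Smad3 to 199 bp in Tgfbr2, beside a median of 110 bp over all genes. Tgfb1, Smad2 and Smad7 each had more than 1 cluster over 100 bp, and the share of all genes with this was not counted. The widest cluster spanned at least 100 bp in 9 of the 10 genes, as it did in 56.0% of all genes. Counting only clusters of at least 10 bp left 27, and Tgfb3, Tgfbr1 and Smad4 then had 1 each. What the span reflects was not tested.

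**Figure D2:**
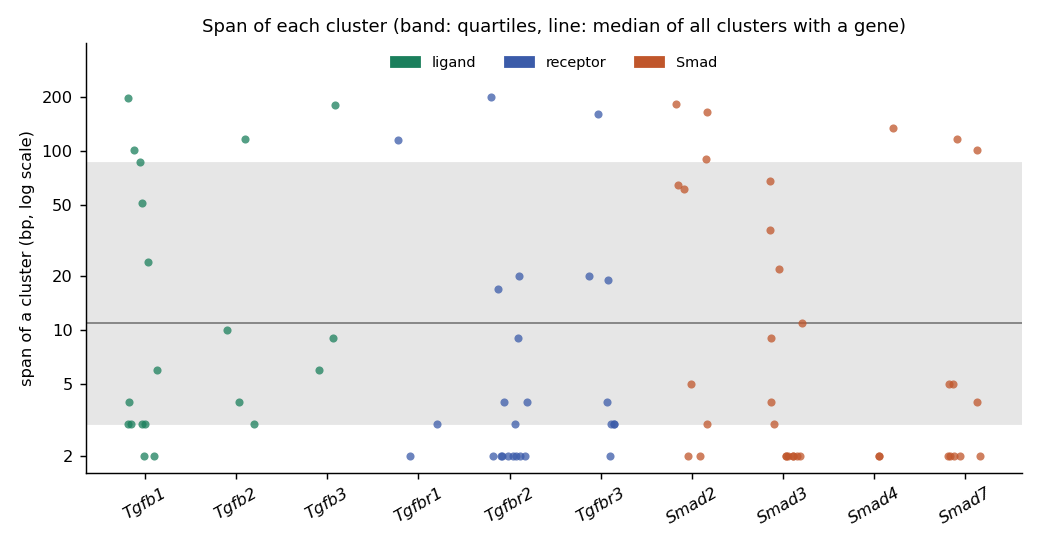
Span of each of the 82 clusters in bp (log scale), 1 point per cluster, by gene and coloured by role, with points spread sideways for view. The grey line is the median (11 bp) and the band the quartiles (3 and 85 bp) of all clusters with a gene. The widest cluster of each gene spans 68 to 199 bp, and most genes have a group of points under 10 bp. Over all genes, the median span of a gene's widest cluster is 110 bp, and that of Smad3 (68 bp) is below it.

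Of the ligands, Tgfb1, which encodes the form made by most immune and stromal cells, had 13 clusters in 1201 bp on the plus strand of chromosome 7. Of all genes, 2.50% had as many or more. Its widest cluster, of 197 bp at chr7:26471959-26472156 (mm9), was also its first, and every other lay downstream. Further clusters of 101, 24, 87 and 51 bp followed at 280, 556, 900 and 1150 bp from that first 5′ edge. The clusters of at least 10 bp of Tgfb1 were thus spread along a stretch of more than 1000 bp, and joining clusters at most 100 bp apart still left 4. GENCODE M21 has 1 coding transcript of Tgfb1, and no cluster was placed on its start.

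Tgfb2, a ligand needed in heart, eye and hair follicle development, had 4, on the minus strand of chromosome 1. The widest spanned 116 bp at chr1:188529120-188529236 (mm9). A 10 bp cluster lay 638 bp upstream of it and a 4 bp cluster 795 bp downstream. Tgfb3, the ligand known for palate closure, had 3 on the minus strand of chromosome 12. Its widest cluster spanned 179 bp at chr12:87419831-87420010 (mm9), with a 6 bp cluster 515 bp upstream and a 9 bp cluster 208 bp downstream.

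The promoters of Tgfb1 and Tgfb2 printed above differ in G or C content and in motifs. Their CpG ratios (observed over expected CG pairs) were 0.6 and 0.46. Both ratios lay between the medians of 0.373 over all promoters and 0.689 over those of genes with a cluster. The window of Tgfb1 was 75.2% G or C, above 96.1% of the 32851 promoters of the table, and held 5 GC boxes, the nearest beginning 16 bases before the start. The median share of G or C was 52.4% over all promoters and 59.2% over those of genes with a cluster. The window of Tgfb2, at 53.6%, lay between these medians and held no GC box. It did hold a TATA box that begins 31 bases before the start. It was the 1 promoter of the 6 with this motif, which stood in 12.4% of all promoters and in 7.75% of those of genes with a cluster. Within the last 100 bases before the start, the motif stood in 5.56% and 3.81% of these. In genes with a single RefSeq promoter and a cluster, the median span of the widest cluster was 60 bp for the 413 with TATAAA in the last 100 bases before the start, and 116 bp for the 8897 without. The widest cluster of Tgfb2 spanned 116 bp. This was the median of the genes without this motif and also the upper quartile of those with it. Whether that cluster starts at this TATA box was not tested.

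Of the receptors, Tgfbr2, which encodes the ligand-binding kinase, had 15 clusters within 517 bp on the minus strand of chromosome 9. Only 1.47% of genes had as many or more. They lay around 1 cluster of 199 bp at chr9:116084253-116084452 (mm9), from 208 bp upstream to 307 bp downstream, and 12 of the 15 spanned under 10 bp. Tgfbr3, which encodes the co-receptor betaglycan, had 8 within 355 bp, all on the minus strand of chromosome 5. They flanked a cluster of 161 bp at chr5:107718483-107718644 (mm9), from 19 bp upstream to 334 bp downstream. In both genes, joining clusters at most 100 bp apart left a single start region. The starts of the 2 coding transcripts of Tgfbr3 in GENCODE M21 stand 156706 bp apart, and no cluster was placed on them.

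Tgfbr1, which encodes the signalling kinase, differed from the other two receptors in layout. It had 3 clusters on the plus strand of chromosome 4, with 1 of 115 bp at chr4:47366059-47366174 (mm9). A 3 bp cluster lay 430 bp downstream and a 2 bp cluster 32902 bp downstream. RefSeq lists 2 promoters for this gene, 32994 bases apart in GRCm38.p6. These are lengths within 2 builds, and whether the narrow cluster belongs to the second annotated start was not tested. The 2 windows differ in composition. The first was 74.8% G or C with a CpG ratio (observed over expected CG pairs) of 0.876, 2 GC boxes and 2 CCAAT boxes, 1 of them on the other strand. The second was 52.8% G or C with a CpG ratio of 0.175, below the median of 0.373 over all promoters, and had no GC box or CCAAT box. The window of Tgfbr2 had 58.4% G or C, no GC box, and CCAAT matches that begin 85 and 68 bases before the start, the latter on the other strand.

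Of the Smads activated by the receptor, Smad2 had 9 clusters on the plus strand of chromosome 18, 5 of them of at least 10 bp. The widest spanned 181 bp at chr18:76400918-76401099 (mm9). Clusters of 90, 64 and 61 bp followed within 853 bp of its 5′ edge. A cluster of 165 bp at chr18:76422090-76422255 lay 21172 bp downstream, nearly as wide as the first, with no other Smad2 cluster between 853 and 21172 bp. In GENCODE M21 (GRCm38), the starts of the 7 coding transcripts of Smad2 stand at 6 positions over 20912 bp, a length within that build on which no cluster was placed.

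Smad3, the other receptor-activated member, had 14, on the minus strand of chromosome 9, and 1.87% of genes had as many or more. Its widest, at chr9:63605976-63606044 (mm9), spanned 68 bp, and 25.5% of genes had a narrower widest cluster. Of the 10 genes it was the only one whose widest cluster was under 100 bp. Clusters of 36 and 22 bp lay 265 and 623 bp downstream. Clusters of 2 and 3 bp lay 91428 and 92012 bp downstream, in a gene that RefSeq gives as 111229 bp long. The starts of the 4 coding transcripts of Smad3 in GENCODE M21 spread over 91447 bp, on which no cluster was placed. Its promoter window was 69.2% G or C and held GC boxes that begin 234 and 171 bases before the start.

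Smad4, the partner shared by both branches of the pathway, had 3, on the minus strand of chromosome 18. The widest spanned 133 bp at chr18:73863356-73863489 (mm9). Clusters of 2 bp lay 322 and 27888 bp downstream of it. Like Tgfb3 and Tgfbr1, it had a single cluster of at least 10 bp. The starts of the 2 coding transcripts of Smad4 in GENCODE M21 stand 25549 bp apart, and no cluster was placed on them.

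Smad7, the inhibitor, had 10 clusters on the plus strand of chromosome 18, in 2 places. A cluster of 101 bp stood at chr18:75526973-75527074 (mm9) together with 8 narrow ones of 2 to 5 bp. A cluster of 116 bp at chr18:75535451-75535567, the widest of the gene, lay 8478 bp downstream of the 5′ edge of the 101 bp cluster. No other cluster given to Smad7 stood near it. In 4.18% of the 14674 genes whose clusters of at least 10 bp are on 1 strand, the widest cluster lay over 1000 bp downstream of another. Smad7 was the 1 gene of the 10 in this class. The starts of its 4 coding transcripts in GENCODE M21 stand within 2447 bp, and the second cluster was not placed on that annotation.

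**Figure D3:**
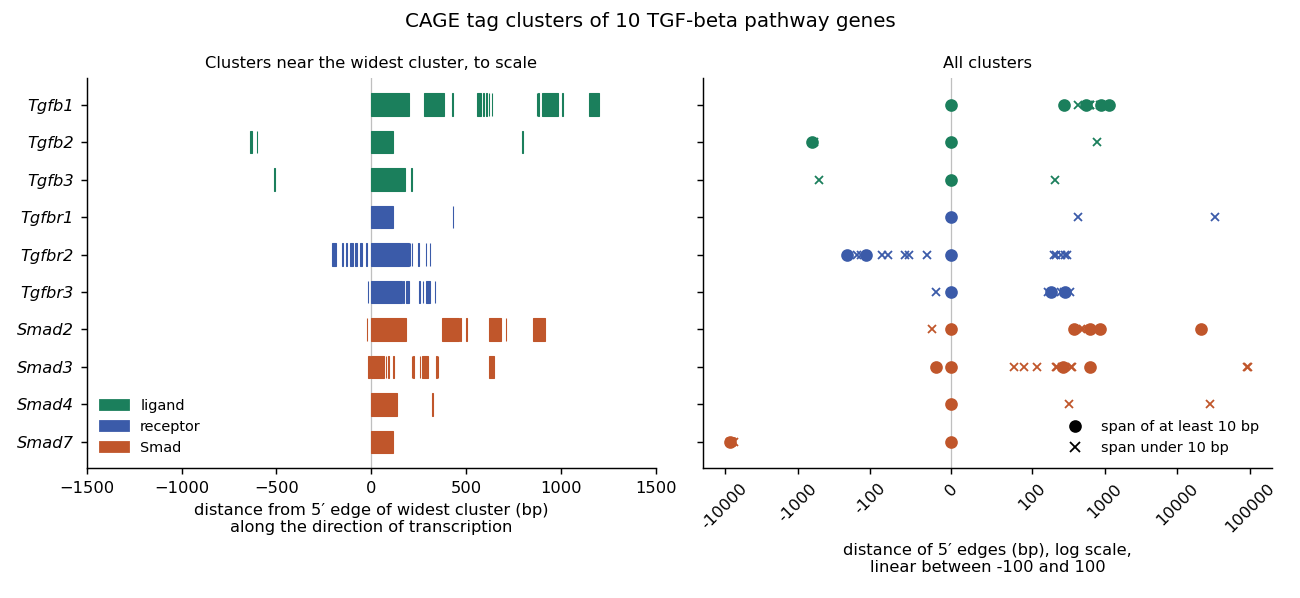
Clusters of the 10 genes by distance in bp from the 5′ edge of the gene's widest cluster, along the direction of transcription, coloured by role. Left, bars to scale within 1500 bp, with a thin outline that keeps the narrowest visible; right, the 5′ edge of every cluster on a log scale, as circles for spans of at least 10 bp and crosses for narrower ones. Clusters of Tgfbr2 and Tgfbr3 stay within 500 bp, those of Tgfb1 run 1150 bp downstream, and the second wide clusters of Smad2 (21172 bp) and Smad7 (8478 bp from the first) stand apart.

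Smad2 and Smad7 were thus the 2 genes of the 10 with neighbouring clusters of at least 10 bp that were 1000 bp or more apart, a layout found in 9.65% of 14678 genes. With clusters of any span there were 5 (also Tgfbr1, Smad3 and Smad4), beside 15.5% of genes. No ligand was among them in either count. A separation of 500 bp, for clusters of at least 10 bp, added Tgfb2. With 10 genes, these counts are a description.

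Start sites on the opposite strand lay within 400 bp upstream of a cluster of at least 10 bp in 4 of the 10 genes, beside 27.6% of 14678 genes. The closest belonged to Tgfb2, where a plus-strand cluster of 69 bp without a gene at chr1:188529238-188529307 (mm9) began 2 bp upstream of the 116 bp cluster. Next to Smad7, a minus-strand cluster of 122 bp at chr18:75526680-75526802, given to RP24-263P17.1, ended 171 bp upstream of the 101 bp cluster. A second cluster of that transcript, of 69 bp, lay 627 bp upstream. The other two were narrow and without a gene, at 9 bp for Smad3 (61 bp upstream of its first cluster) and 2 bp for Tgfb1 (51 bp upstream of its last). No opposite-strand cluster of any span lay within this distance upstream of a cluster of at least 10 bp in Tgfb3, Tgfbr1, Tgfbr2, Tgfbr3, Smad2 or Smad4.

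Clusters that carried no member symbol but lay in or within 5000 bp of the stretch between a gene's outermost clusters numbered 18, at 7 of the genes. Tgfbr2, Tgfbr3 and Smad2 had none. Of the 18, 15 had no gene and 10 were on the strand of the member. In Smad3, a 20 bp cluster without a gene stood on the same strand 83138 bp downstream of the widest cluster. In Smad7, same-strand clusters of 12 and 11 bp without a gene stood between its 2 wide clusters, 4786 and 1992 bp before the second. Another, of 2 bp, lay 398 bp downstream of the 5′ edge of the second. Tgfbr1 had 4 such same-strand clusters of 2 to 4 bp, between 14121 and 34671 bp downstream. Whether they are starts of the member gene was not tested, and the catalogue does not list them under it.

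The 6 promoter windows were searched for 6 motifs. The GC box stood in 3 of the 6 (Tgfb1, Smad3 and the first Tgfbr1 window), beside 32.7% of all promoters and 55.1% of those of genes with a cluster. The Smad element stood in 2 of the 6 (Tgfb2 and the second Tgfbr1 window), beside 17.1% of all promoters, beginning 204 and 203 bases before the start. The CCAAT box stood in 3 of the 6, beside 33.8% of all promoters. Neither the Smad palindrome GTCTAGAC (0.167% of all promoters) nor the AP-1 site TGANTCA (6.75%) was found in the 6 windows. These are matches of letters on both strands, and in none of the printed windows do different motifs overlap.

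The other genes of the pathway were looked up in 6 lists of 82 genes. Of these, 76 had a cluster (92.7%), beside 63.3% of all 21896 protein-coding genes, and those that had one had a median of 4 clusters, beside 2. The lists hold genes that were chosen as parts of the pathway, and this share was not tested. The other ligands of the superfamily stood at 11 of 16. Bmp7 had the most clusters (11), then Bmp1 (8), a protease that was named with the ligands and processes procollagen, and Inhbb (5), an activin subunit. Inha, Gdf11, Gdf15, Nodal and Amh had no cluster under their symbols. All 10 other receptors had one, led by the BMP receptor gene Bmpr1a (14), the activin receptor gene Acvr2a (13) and Acvr1 (8).

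All 6 other Smads and Smad anchors were listed, with 7 clusters for the inhibitory Smad6, 5 for the BMP-activated Smad5 and 4 for Zfyve9, whose product SARA presents SMAD2 to the receptor. Genes of latency and activation stood at 13 of 14. Itgb8 (14 clusters), an integrin subunit that releases active TGF-beta, led the list, followed by the protease gene Furin (10) and the integrin gene Itgb1 (10). Lrrc32, whose product GARP holds latent TGF-beta on regulatory T cells, had none. All 17 inhibitors and co-repressors were listed, with Dcn at 11, the activin antagonist Fst at 9 and Tgif1 at 9. All 24 target genes were listed, led by the collagen genes Col1a1 (24) and Col1a2 (23) and by Junb (12).

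**Figure D4:**
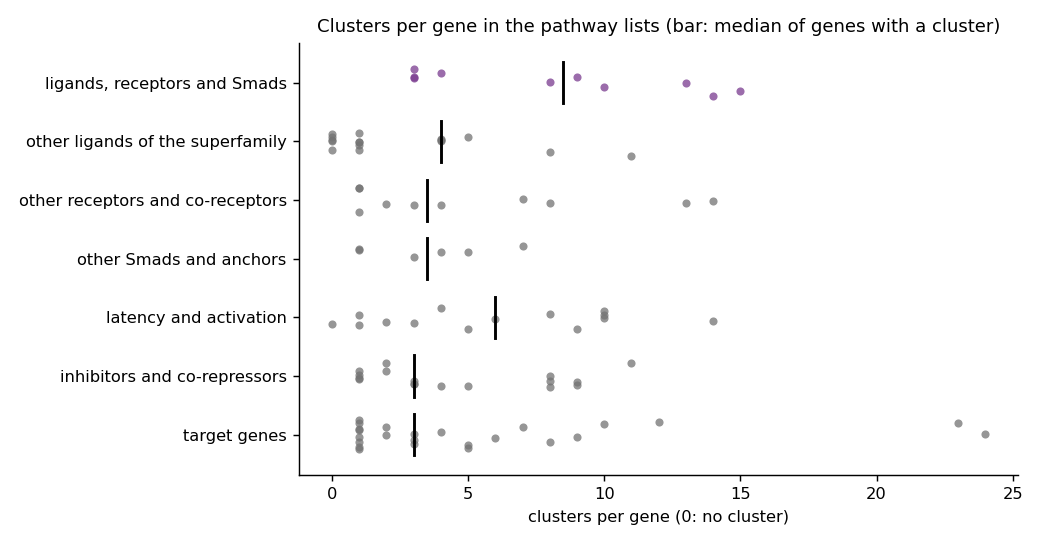
Clusters per gene in the list of ligands, receptors and Smads (purple) and in 6 lists of other pathway genes (grey), 1 point per gene, with the median of the genes with a cluster as a bar. The medians are 8.5 for the 10 genes and 3 to 6 for the other lists, with Col1a1 and Col1a2 farthest to the right among target genes.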

How the data were processed

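CAGE libraries were made from total RNA of facial skin, 4 lesional and 4 non-lesional samples, per the labels. The deposited table holds 1 row per tag cluster and gene, and the 2 columns used here hold no measurement but the position on the genome and the gene symbol that the authors gave. BWA, HISAT2 and the build mm9 are named in the submitters' processing notes, without versions. The rule for calling clusters and for tying them to genes is not given in the sources used here, nor is the base from which starts are counted, so mm9 coordinates are printed as deposited. A minimum of tags per cluster would remove weak starts, and how far it did so is not known.

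The 8 columns of per-sample values match no sample label and were not used. The planned fits between groups, and the depth of each library, were therefore not analysed. The groups of the design enter no comparison here, and no p-value is given.

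Positions were read with Python 3.11.15 and pandas 2.3.3. Of 42892 rows whose symbol has 1 chromosome and strand in GENCODE M21, 99.9% were on them. Symbols of the pathway lists were matched by current or unique older symbol to RefSeq GRCm38.p6, and all 82 matched. Motifs were searched on both strands of the 250 bases before each start. Genes named are the 10 members and, per list, those without a cluster and the 3 with the most clusters, ties in alphabetical order. Members and lists were chosen with earlier results of these data known. The counting steps were tested on simulated data.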

Additional observations from a re-analysis of the deposited data

How the results depend on the processing

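The number of clusters depended on what is counted as 1. The 82 clusters became 27 with spans of at least 10 bp and 31 when clusters at most 100 bp apart were joined, so the counts per gene are counts of called clusters and not of promoters. Wide clusters 1000 bp or more apart were found in 2 genes. This became 5 genes when narrow clusters were let in, beside 15.5% of all genes. It became 3 when 500 bp was enough (Tgfb2, Smad2 and Smad7), beside 14.2% of 14678 genes. Genes with an opposite-strand cluster upstream stayed at 4 for distances of 200 and 1000 bp, beside 23.9% and 29.3% of 14678 genes. They went to 2 when the opposite-strand cluster had to span at least 10 bp, beside 21.8%. Both of these counts, with their main settings and their alternatives, were chosen after seeing the data. The plan also did not name the class in which Smad7 stood alone, the spans by TATA box or the neighbouring clusters within 5000 bp. Of the other pathway genes, 74 in place of 76 had a cluster with spans of at least 10 bp (90.2%, beside 59.9% of all protein-coding genes). With current symbols only, 74 had a cluster (90.2%, beside 57.2%). In the 100 bases before the start, the Smad element was in none of the 6 windows, in place of 2, beside 6.44% of all promoters. The GC box was there in 2, in place of 3, beside 24.7% of all promoters and 43.2% of those of genes with a cluster. No paired analysis was possible because the columns of values carry no sample or replicate number of the labels. The alternatives for fits between groups (normalization, tool, filter, pseudocount and replicates left out) were not run for the same reason. A gene without a cluster cannot be told from one expressed below the unstated calling limit.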
